A study of Homo sapiens with 2 samples.

Results

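The genes described here encode the MYC transcription factor, its partner MAX, the MAX-binding repressors MXD1, MXI1, MXD4 and MNT, the related partner MLX, and the factors MYB, MYBL1 and MYBL2. All probe sets whose platform symbol was one of these 10 genes were taken, which gave 20 of the 22283 probe sets on the array. The cells were L-540, a long-established line from Hodgkin lymphoma. The cultures were treated with vorinostat, a hydroxamate inhibitor of histone deacetylases, or left untreated, and each group held 1 Affymetrix HG_U133A array. There were no replicates, so no difference below had a replicate check and no p-value is given. The labels state no dose or duration of treatment, nor how many cultures fed each array. The genes were chosen by their roles and with their log2 ratios between these 2 arrays already known, so those ratios are given as a description.

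MYC binds DNA as a pair with MAX at the E box, a short palindrome, and brings acetyltransferases to genes of growth and metabolism. MXD proteins and MNT pair with MAX at the same sites and bring in the SIN3 corepressor with its histone deacetylases, the enzyme class that vorinostat inhibits. MLX stands in for MAX with some of these repressors and with the glucose-sensing factors MLXIP and MLXIPL. MYB is needed by blood progenitors and is often high in leukaemias, MYBL1 is known from germ cells and germinal centre B cells, and MYBL2 joins the MuvB complex in cycling cells to drive genes of the G2 phase and mitosis.

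MYBL1 was the member that differed by the widest margin, 3.93-fold higher in the vorinostat array. MYB was 1.76-fold lower, MXI1 1.62-fold lower and MYBL2 1.43-fold lower. MAX, on its brightest probe set, was 1.48-fold higher. MYC itself lay close to equality, with a log2 ratio of -0.09.

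The promoters of 8 members were read for known motifs, as a description of sequence that these arrays did not measure. RefSeq promoter windows (GRCh38.p14, 250 bases before to 50 bases after a start site) were read for 8 of the 10 genes. There were 11 windows in all, with several start sites for MAX and MXI1. MYC and MYBL1 were left out of this reading, so nothing is said of motifs in their promoters. The E2F-type motif TTGGCGGGA, on either strand, was in the windows of MYB and MYBL2 and in 109 of all 35116 windows (0.310%). This motif was chosen after these windows had been read, so its presence in both is no finding. It began at position -60 in MYB and at position -41 in MYBL2, counted from the start site. The 3 windows of MXI1 did not hold this motif. A link between the motif and the signals was not tested. Of the 8 genes read, which do not include MYBL1, MYB and MYBL2 were the ones that held the E2F-type motif. Their windows are shown in full. The E2F-type motif is in capitals and, in MYBL2, an E box at position -243 is in capitals as well. The MYB window is chr6:135181058-135181357 (plus strand) and the MYBL2 window is chr20:43666864-43667163 (plus strand).
MYB: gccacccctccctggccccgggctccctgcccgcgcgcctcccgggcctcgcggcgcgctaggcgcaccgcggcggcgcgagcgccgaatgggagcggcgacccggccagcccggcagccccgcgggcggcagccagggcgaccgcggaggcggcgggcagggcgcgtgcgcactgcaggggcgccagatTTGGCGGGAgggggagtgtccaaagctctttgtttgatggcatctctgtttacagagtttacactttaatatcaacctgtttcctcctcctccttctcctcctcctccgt
MYBL2: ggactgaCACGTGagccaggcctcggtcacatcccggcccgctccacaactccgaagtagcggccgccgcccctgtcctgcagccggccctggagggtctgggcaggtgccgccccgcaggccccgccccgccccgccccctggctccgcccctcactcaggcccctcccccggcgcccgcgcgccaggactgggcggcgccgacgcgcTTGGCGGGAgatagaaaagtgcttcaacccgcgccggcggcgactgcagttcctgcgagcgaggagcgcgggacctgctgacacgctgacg

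The E box CACGTG, which reads alike on both strands and is the site of MYC, MAX and MLX pairs, was in 4 of the 11 member windows and in 7.26% of all windows. Besides MYBL2, the windows of MNT, MLX and MXD4 held it. No window of MYC or MYBL1 was read for it. The stretches around it are shown, with the E box in capitals, because these members are themselves MAX or MLX network proteins. The MNT stretch is chr17:2401221-2401280 (minus strand), the MLX stretch is chr17:42567023-42567082 (plus strand) and the MXD4 stretch is chr4:2262315-2262359 (minus strand).
MNT: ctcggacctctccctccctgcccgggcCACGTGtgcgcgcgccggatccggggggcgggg
MLX: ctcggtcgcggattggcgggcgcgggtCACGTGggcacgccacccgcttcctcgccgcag
MXD4: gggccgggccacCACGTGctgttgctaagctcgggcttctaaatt

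The core MYB motif AACNG was in 9 of the 11 member windows, and 77.2% of all windows held it. The windows of MAX held none of the 3 motifs. A match in letters was not tested as a binding site.

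Values are MAS5 signals, intensities on a linear scale with each array scaled as a whole by the authors. A floor of 68.9 signal units was set from the pooled non-control signals (their 40th percentile), and a probe set under it on both arrays was not measured. The median signal was 115 in the vorinostat array and 126 in the untreated array, with a trimmed mean of 500.2 on both. The share of non-control probe sets over the floor was 58.8% in the vorinostat array and 61.2% in the untreated array. Of the Hodgkin cell markers 8 of 9 lay above the floor on each array, with summed signals of 34173 in the vorinostat array and 44729 in the untreated array. These 8 went in different directions. TNFRSF8 (CD30) had 3228 in the vorinostat array and 10777 in the untreated array, and it was 1 of 5 with a lower signal with vorinostat. The other 3 had a higher signal with vorinostat: IRF4 (14699 with vorinostat, 12032 untreated), GATA3 and ID2. Of 5 T cell markers 2 lay above the floor in the vorinostat array and 3 in the untreated array, with CD3D and CD3G under it on both. Their summed signals were 1273 with vorinostat and 4954 untreated. Most of each sum came from CD247, with 942 with vorinostat and 4463 untreated. CD2 had 220 with vorinostat and 319 untreated, and CD3E was above the floor in the untreated array only. Of the B cell and of the monocyte markers 1 each lay above the floor on each array (CD22 and CSF1R). MS4A1, CD79A, CD14 and LYZ were under it, and 0 of 5 epithelial markers lay above it. Of 5 fibroblast markers 3 lay above the floor in the vorinostat array (COL1A1, COL1A2 and DCN) and 2 in the untreated array (COL1A1 and DCN). COL3A1 and LUM were under it on both. The part of these markers in the values below was not tested, and fewer cells of a type cannot be told apart from less RNA per cell.

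Of the 20 probe sets, 17 named a single gene and 3 named MXD4 together with MIR4800. Of the 17, 15 were measured, covering 8 genes, and the MXD1 probe set and the second MYB probe set were under the floor on both arrays. Of the 15, 1 was higher by 2-fold or more in the vorinostat array (MYBL1), 0 were lower by as much and 14 lay within 2-fold. Over all 14194 measured probe sets, 3.65% were higher by 2-fold or more and 5.47% were lower by as much, and in each direction the members' count is near that background. The median log2 ratio of the 15 was -0.16, with a range from -0.82 to 1.98, beside a median of -0.05 over all measured probe sets. Log2 ratios were below 0 for 10 of the 15, against 53.9% of all measured probe sets. The plot of signals by probe set shows each pair of values.

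**Figure D1:**
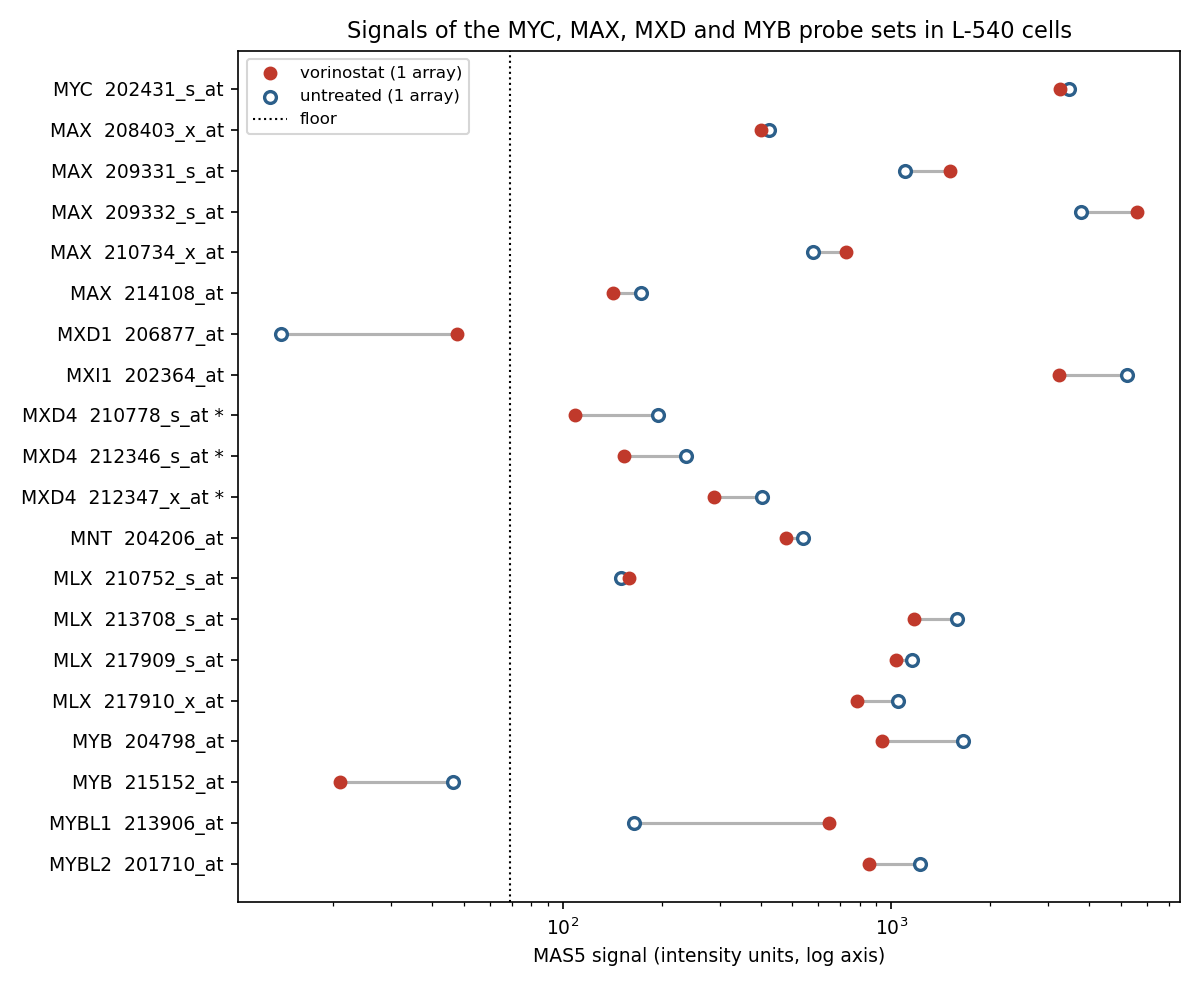
MAS5 signal (intensity units, log axis) of each of the 20 probe sets in the vorinostat array (filled) and the untreated array (open), 1 array each; the dotted line is the floor of 68.9 and an asterisk marks probe sets that name MIR4800 and MXD4. MYBL1 has the widest gap among the probe sets above the floor, with 646 in the vorinostat array and 164 in the untreated array.

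MYC was represented by 1 probe set, 202431_s_at, with a signal of 3263 in the vorinostat array and 3471 in the untreated array. The ratio was 0.940. Close to the middle of the array, 46.6% of measured probe sets had a log2 ratio at or below that of MYC. Its small ratio changed sign with the scaling, from -0.11 to 0.04 over the other scalings and floors, so no direction is given for MYC. The suffix of this probe set marks sequence that can be shared with other transcripts.

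MAX, the obligate partner of MYC and of the MXD proteins, had 5 probe sets that went in different directions. The brightest, 209332_s_at, had 5592 in the vorinostat array and 3772 in the untreated array (1.48-fold higher). The probe sets 209331_s_at and 210734_x_at were 1.37-fold higher (1509 with vorinostat, 1101 untreated) and 1.26-fold higher (727 with vorinostat, 578 untreated). In contrast, 214108_at had 142 in the vorinostat array and 173 in the untreated array, a log2 ratio of -0.29. The probe set 208403_x_at had 402 with vorinostat and 425 untreated, a log2 ratio of -0.08 that became 0.05 when the arrays were scaled to equal medians. Of the 5, 4 carry a suffix that marks possible shared sequence, and 214108_at is the one that does not. The range over the MAX probe sets was 0.85 on the log2 scale, against a median range of 0.34 over 2428 genes with 2 or more probe sets above the floor on both arrays. Which MAX transcripts each probe set reads is not given in the sources used here.

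MLX had 4 probe sets, all with a shared-sequence suffix. The brightest, 213708_s_at, had 1169 in the vorinostat array and 1589 in the untreated array (1.36-fold lower). The probe set 217910_x_at had 785 with vorinostat and 1045 untreated (1.33-fold lower), and 217909_s_at had 1029 with vorinostat and 1152 untreated (1.12-fold lower). The dim probe set 210752_s_at had 159 with vorinostat and 150 untreated, a log2 ratio of 0.08. The median of the 4 was -0.29 and their range 0.53, both as log2 ratios. For scale, over the 2428 genes the log2 ratios of the 2 brightest probe sets of a gene differed by a median of 0.25 and by 0.67 at the 90th percentile.

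Among the repressors, MXI1, which pairs with MAX and recruits SIN3, had a signal of 3232 in the vorinostat array and 5221 in the untreated array on 202364_at. It was 1.62-fold lower, and 12.5% of all measured probe sets had a log2 ratio at or below its value of -0.69. Over the other scalings and floors the value ran from -0.70 to -0.56, lower each time. MNT, a broadly expressed MAX-binding repressor, had 478 in the vorinostat array and 540 in the untreated array on 204206_at, a log2 ratio of -0.18 that ran up to -0.05 with other scalings. Between MXI1 and MNT, MXI1 had the larger difference, and neither reached 2-fold.

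MXD1, a repressor known to rise as blood cells mature, had 47.5 in the vorinostat array and 13.9 in the untreated array on 206877_at. Both values lie under the floor, so no fold is given. With a floor at the 25th percentile the log2 ratio was at least 0.74, and when 16 units were added to each signal and no floor was set it was 1.09. The MXD1 value therefore depends on how the low signals are treated.

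The 3 probe sets that name both MXD4 and MIR4800 were kept out of the counts, since no value can be given to either gene alone. RefSeq places the MIR4800 gene inside MXD4. The probe set 212347_x_at had 289 in the vorinostat array and 405 in the untreated array, 212346_s_at had 153 with vorinostat and 238 untreated, and 210778_s_at had 109 with vorinostat and 195 untreated. All 3 were lower in the vorinostat array, by 1.40-fold, 1.55-fold and 1.79-fold. With them included the median of the members was -0.23 in place of -0.16 and the counts past 2-fold did not change. This alternative was chosen after seeing the data.

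Within the MYB family, MYBL1 was higher in the vorinostat array while MYB and MYBL2 lay below equality within 2-fold, under each scaling and floor that was run. MYBL1 had 646 in the vorinostat array and 164 in the untreated array on 213906_at, its single probe set. Its log2 ratio of 1.98 ranked 18th from the highest of 14194 measured probe sets. Over the other scalings and floors it ran from 1.5, with the floor at the 60th percentile, to 2.10, with equal medians, and it was past 2-fold in each. The suffix of this probe set does not mark shared sequence, and no second probe set was there to check it.

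MYB had 938 in the vorinostat array and 1650 in the untreated array on 204798_at, 1.76-fold lower, and 9.10% of measured probe sets had a log2 ratio at or below its -0.82. The second MYB probe set, 215152_at, had 20.9 with vorinostat and 46.4 untreated, which leaves it unmeasured. A lower floor, at the 25th percentile, gave this second probe set a log2 ratio of -0.71 or less. MYBL2 had 852 in the vorinostat array and 1222 in the untreated array on 201710_at, 1.43-fold lower, and 18.9% of measured probe sets lay at or below its log2 ratio of -0.52. At a threshold of 1.5-fold, MYB and MXI1 were the 2 members counted as lower, and MYBL1 was the 1 counted as higher; of all measured probe sets 16.1% were lower and 12.5% higher by that much. The MYBL1 value lies apart from the other members in the plot of ratio against signal level.

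**Figure D2:**
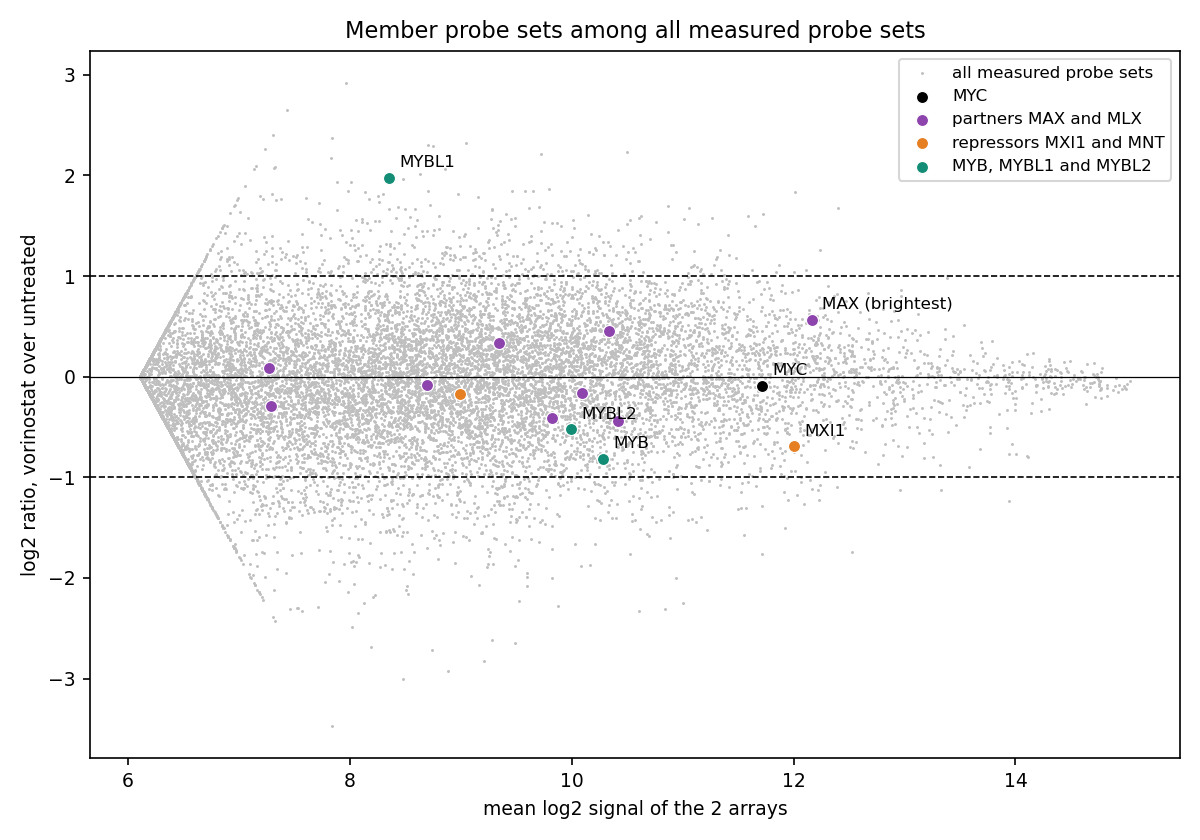
Log2 ratio of vorinostat over untreated against the mean log2 signal of the 2 arrays, for all 14194 measured probe sets (grey) and the 15 measured members (coloured by role); dashed lines mark 2-fold. MYBL1 sits at 1.98, and the other 14 member points lie between -0.82 and 0.57.

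**Figure D3:**
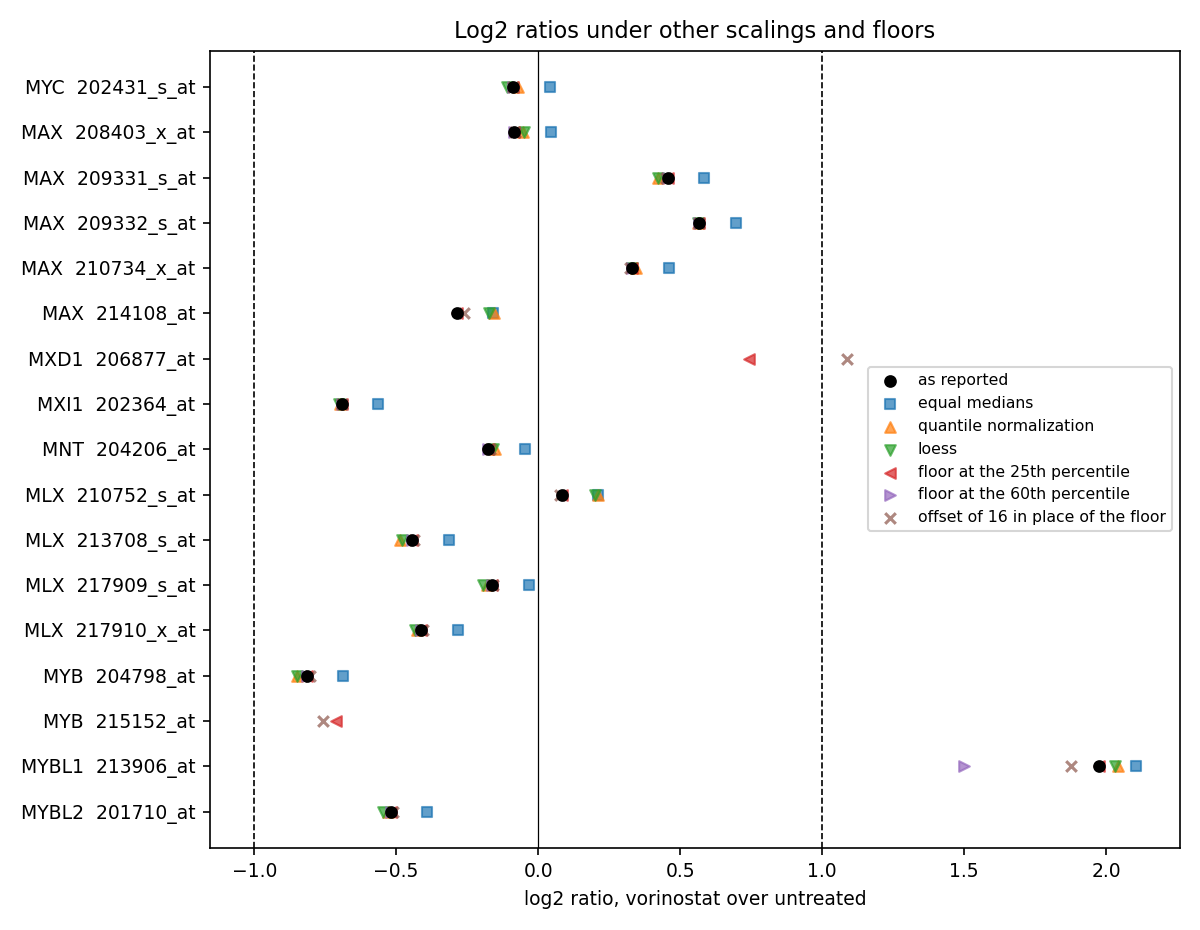
Log2 ratio of vorinostat over untreated for each of the 17 probe sets that name a single gene, under the deposited scaling and 6 other scalings or floors (symbols); dashed lines mark 2-fold, and a probe set under a floor on both arrays has no symbol for it. MYBL1 lies beyond 2-fold under each, from 1.5 to 2.10, and MYC and 208403_x_at of MAX cross 0 with equal medians.

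The genes that work with these factors were taken as 12 lists with 150 further genes, of which 123 were measured, each by its brightest probe set. For some of these genes another probe set was past 2-fold where the brightest was not, and it is not in the counts. Of the 123, 2 were higher by 2-fold or more in the vorinostat array, 11 lower by as much and 110 neither, and among all 8277 measured genes 3.77% were higher and 5.12% lower. Their median log2 ratio was -0.11, beside -0.04 over all measured genes. With the arrays scaled to equal medians, 5 were higher and 6 lower: AURKA, CDC25A, DYRK1A, SMARCB1 and UBE2C then fell short of 2-fold lower, and CKS2, MLXIP and ODC1 passed 2-fold higher. Under that scaling the median of all probe sets moved by more than 0.1, from -0.05 to 0.07. Each list median below, on the log2 scale, is followed by its range over the other scalings, floors and offset, without shared-sequence probe sets, and with medians over the probe sets of a gene.

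Of the other genes of the MYC network, 5 of 6 were measured and 0 passed 2-fold (median 0.45, range 0.37 to 0.71, with 2 genes at a bound). The median is the value of MLXIPL, itself a bound, since MLXIPL lay under the floor in the untreated array. MXD3, a further MAX-binding repressor, had 321 in the vorinostat array and 209 in the untreated array (1.54-fold higher), and MYCL, a MYC paralogue, had 89.7 in the vorinostat array and lay under the floor in the untreated array. Of the MYC coactivators, 0 of 10 measured genes were higher and 2 lower (median -0.41, range -0.43 to -0.28). KAT5, the acetyltransferase TIP60, was 3.06-fold lower (453 with vorinostat, 1388 untreated), with each of 3 probe sets lower, and SMARCB1, a core subunit of the SWI/SNF remodeller, was 2.03-fold lower (375 with vorinostat, 763 untreated). The scaffold gene TRRAP and the remodeller gene EP400 had log2 ratios of -0.51 and -0.32, and the second EP400 probe set was at 0.12. Of the corepressor subunits that MXD proteins and MNT recruit, 0 of 9 measured genes passed 2-fold (median 0.10, range 0.07 to 0.32). Its members SIN3B and HDAC1 had log2 ratios of -0.34 and -0.09.

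Of genes that set the stability of the MYC protein, 1 of 11 was higher and 1 lower (median -0.01, range -0.29 without shared-sequence probe sets to 0.12 with equal medians). FBXW7, the ubiquitin ligase subunit that marks MYC and MYB for degradation, was 2.26-fold higher (840 with vorinostat, 372 untreated). AURKA, a mitotic kinase that protects MYC family proteins, was 2.15-fold lower on the brightest of 3 probe sets (1078 with vorinostat, 2317 untreated), whose median of -0.56 on the log2 scale is short of 2-fold. The brightest of 3 SKP2 probe sets had a log2 ratio of 0.08, the other two were below 0 and the median was -0.30. USP36 had a log2 ratio of 0.68. The FBXW7 value rests on 1 probe set whose suffix marks shared sequence.

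Of genes known to be activated by MYC, 0 of 22 measured were higher and 1 lower (median -0.08, range -0.20 without shared-sequence probe sets to 0.05 with equal medians). CDC25A, a cell cycle phosphatase, was 2.07-fold lower (181 with vorinostat, 374 untreated) with a median of -0.76 over 2 probe sets, short of 2-fold. ODC1, the first enzyme of polyamine synthesis, had 15002 with vorinostat and 7581 untreated, a log2 ratio of 0.98 that passed 2-fold with equal medians, quantile normalization and loess. The nucleolin gene NCL had a log2 ratio of -0.26. In the list of ZBTB17 (MIZ1, which MYC binds to repress genes) and MYC-repressed genes, 0 of 7 were higher and 1 lower (median -0.43, range -0.55 to -0.09, the last with the floor at the 60th percentile). That median is the value of CDKN1C, which is itself a bound, as is that of NDRG2. NDRG2 was at least 2.83-fold lower, being under the floor in the vorinostat array, while its second probe set had a log2 ratio of -0.04. ZBTB17 had a log2 ratio of 0.33 and the cell cycle inhibitor gene CDKN1A one of 0.63. Among targets of MLX pairs 1 of 3 measured was higher (median 0.06, range -0.07 to 0.55): PFKFB3, a regulator of glycolysis, was 2.93-fold higher (511 with vorinostat, 174 untreated), while TXNIP and HK2 had log2 ratios of 0.06 and -0.07 (0.01 as the median of 2 HK2 probe sets).

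Of cofactors of the MYB protein, 1 of 10 measured was higher and 3 lower (median 0.12, range -0.66 without shared-sequence probe sets to 0.25 with equal medians, and -0.10 for medians over probe sets). HIPK2, a kinase that takes part in MYB degradation, was 3.16-fold lower (665 with vorinostat, 2100 untreated), on its brightest of 2 probe sets. The second HIPK2 probe set had a log2 ratio of -0.74, short of 2-fold, and the median of the 2 was -1.20. CEBPB, which acts with MYB at myeloid promoters, was 3.05-fold lower (1082 with vorinostat, 3297 untreated), and the acetyltransferase gene CREBBP, whose product binds MYB directly, was 2.47-fold lower (211 with vorinostat, 522 untreated). EP300, its paralogue, had a log2 ratio of -0.42, KMT2A one of 0.29 on its brightest of 6 probe sets (median -0.16), and FBXW7 was the higher member. Of MYB targets, which include the member MYC, 0 of 8 measured passed 2-fold (median -0.23, range -0.24 to -0.09, the last with the floor at the 60th percentile). BCL2 was at -0.46 on its brightest of 4 probe sets, with a median of -0.64 and a lowest of -1.12, past 2-fold. ADA was at 0.51.

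Of the MuvB and DREAM subunits and partners, 0 of 10 measured were higher and 2 lower (median -0.24, range -0.34 to -0.11). FOXM1, the factor that follows MYBL2 on MuvB at mitotic genes, was 2.29-fold lower (474 with vorinostat, 1084 untreated) on a shared-sequence probe set. DYRK1A, the kinase that assembles DREAM, was 2.07-fold lower (1173 with vorinostat, 2425 untreated) with a median of -0.65 over 2 probe sets, short of 2-fold. LIN37 and RBBP4 had log2 ratios of 0.45 and -0.30, and the second RBBP4 probe set was at 0.13. Of 25 measured G2 and mitosis genes driven by MYBL2-MuvB and FOXM1, 0 were higher, 2 lower and 23 within 2-fold (median -0.16, range -0.19 to -0.03, the last with equal medians). UBE2C, a ubiquitin-conjugating enzyme of mitotic exit, was 2.02-fold lower (1242 with vorinostat, 2512 untreated), AURKA is given above, and the cyclin genes CCNB1 and CCNB2 had log2 ratios of -0.36 and -0.16. Of other factors that bind E boxes 0 of 7 measured passed 2-fold (median -0.36, range -0.45 to -0.19, the last with the offset), with USF2 at -0.36. TFE3 was at -0.75 on its brightest probe set and at 0.02 on its second. The plot of the lists sets each against the centre of all measured genes.

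**Figure D4:**
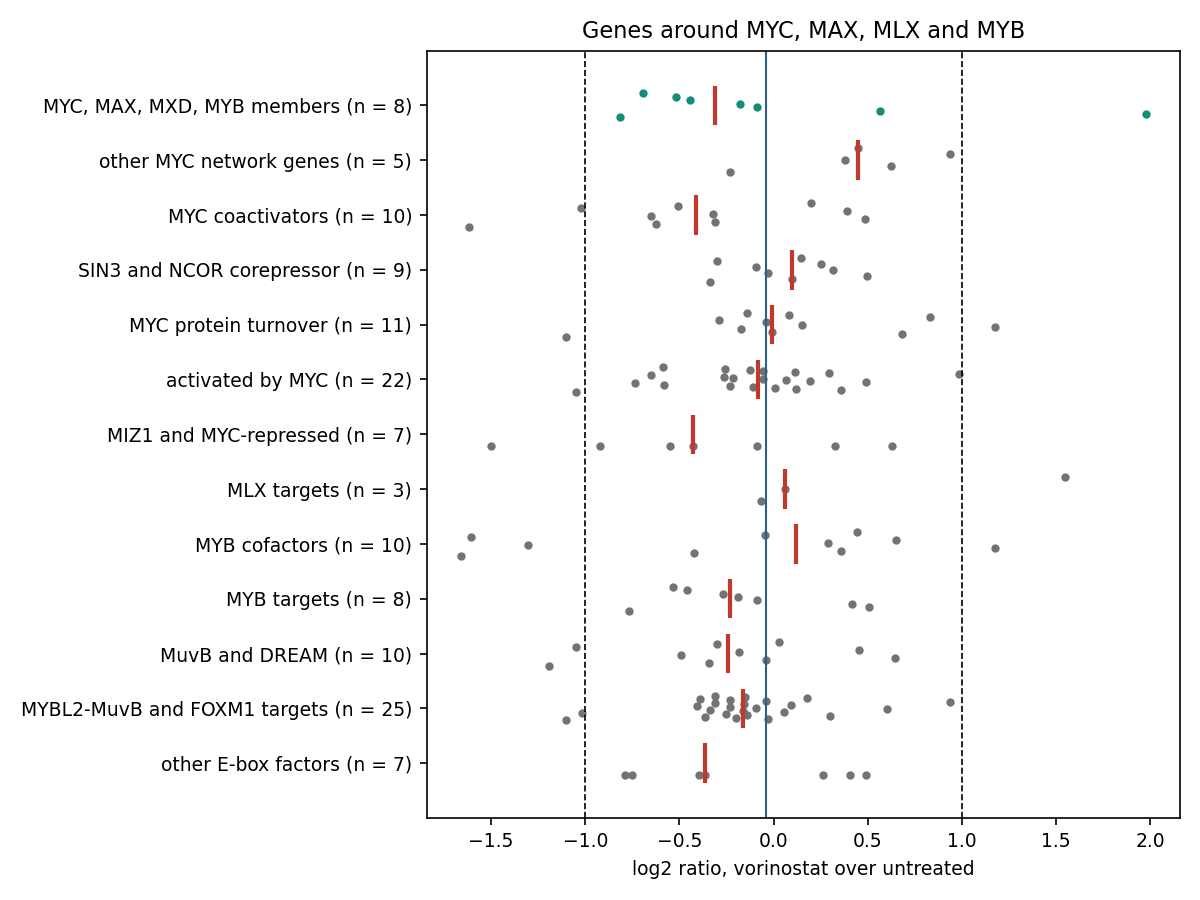
Log2 ratio of vorinostat over untreated for each measured gene (points) of the members and of 12 lists around them, with the number measured in brackets, the list median (red bar), the median of all 8277 measured genes (blue line, -0.04) and 2-fold (dashed). MYBL1 at 1.98 is the rightmost member, and the list medians lie between -0.43 and 0.45.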

How the data were processed

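Total RNA from vorinostat-treated and untreated L-540 cells was labelled with biotin and hybridised to HG_U133A arrays, per the labels' protocols. The authors deposited 1 intensity per probe set, and the submitters' processing notes name MAS5. Its version, its scaling target and any detection calls are not given in the sources used here. Of 22283 probe sets 68 controls were left out. Symbols came from the platform's annotation table (19065 probe sets with 1 symbol, 1043 with several, 2107 unnamed here), and the Entrez identifiers of 19053 of the probe sets with 1 symbol were found in RefSeq's GRCh38.p14 table. No gene was given a value from a probe set with several symbols.

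Lower signals were raised to the floor before log2, and a ratio with 1 array at the floor is a bound. Ratios are vorinostat over untreated. List genes were represented by their brightest probe set. No test was possible with 1 array per group, and 2-fold was a rule of size. The members and lists were chosen with earlier results of these data known. Every member is named; of each list, up to 4 genes past 2-fold with the largest ratios and the first 2 others in list order. TNFRSF8 was named as the defining Hodgkin marker. The alternatives were other scalings (equal medians, quantile, loess), floors at the 25th and 60th percentiles, an offset, no shared-sequence probe sets, thresholds of 1.5-fold and 3-fold, and the median over probe sets. The scalings and 2-fold calls were tested on simulated data with changes planted in bright probe sets. The choice of probe set, the lists and the promoter motifs were not tested in this way. Python 3.11.15, numpy 2.4.6, pandas 2.3.3, scipy 1.17.1, statsmodels 0.14.6 and matplotlib 3.10.9 were used. The number of arrays limits the precision.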

Additional observations from a re-analysis of the deposited data

How the results depend on the processing

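No paired analysis was possible because each group held 1 array and the labels carry no replicate numbers. MYBL1 was at least 2-fold higher under each alternative run, the 3-fold threshold included, and no member probe set was at least 2-fold lower under the alternatives that kept the 2-fold threshold. The median of the member probe sets, -0.16 on the log2 scale, was -0.033 with equal medians and -0.40 without shared-sequence probe sets, where 6 member probe sets were left. With the offset 2 member probe sets were at least 2-fold higher, the second being that of MXD1, and at 1.5-fold 2 were lower (MYB and MXI1). Of the 123 list genes, 13 were past 2-fold, against 5 of 68 without shared-sequence probe sets (CDC25A, CEBPB, CREBBP, HIPK2 and UBE2C), 32 at 1.5-fold and 3 at 3-fold. Fewer genes are tested without the shared-sequence probe sets. Of all probe sets past 2-fold 40.03% were higher, against 56.9% with equal medians. Of list genes past 2-fold 15.4% were higher, against 45.5% with equal medians and 0% without shared-sequence probe sets. Signals near the floor limit what can be said of MXD1.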
